A study of Rattus norvegicus with 3 samples.

Results

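Expression of 7 genes of the Müller glia was followed in retinal RNA of the rat, in the 3 libraries of the study. They were chosen by name, with earlier results of these data known. Kcnj10 and Aqp4 encode the potassium channel Kir4.1 and the water channel aquaporin-4. Dmd and Dag1 encode dystrophin and dystroglycan, the anchors of these channels in the membrane. Glul and Slc1a3 encode glutamine synthetase and the glutamate transporter GLAST, and Rlbp1 encodes the retinaldehyde-binding protein CRALBP. All 7 members were found among the 32883 genes of the tables, each as 1 row, and all 7 were among the 15543 genes kept after filtering, which asked for a CPM (a count scaled to library size) of at least 1 in at least 1 library.

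The Müller glia are the main supporting cells of the retina and span it from the vitreous to the photoreceptors. Kir4.1 carries potassium released by active neurons into the glia and out again at the endfeet, and aquaporin-4 lets water follow. In the endfeet both are held by the dystrophin complex, in which dystrophin binds dystroglycan, dystroglycan binds the basal lamina and syntrophins bind the channels. The same cells clear glutamate through GLAST, turn it into glutamine by glutamine synthetase, and hold 11-cis-retinaldehyde on CRALBP.

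Each library was made from the retina of Sprague-Dawley rats, an outbred albino strain, at postnatal day 60, and each group had 1 library. CTL is labelled as having had no treatment, although the protocol also describes a sham operation with a needle in the anterior chamber at 2.66 kPa, so which of these CTL was is not settled. HIOP eyes were raised to 110 mmHg for 60 min, which stops blood flow in the retina until the pressure is released, and retinas were collected 12 h later. HIOP_GSK had the same procedure, and 24 h before it the anterior chamber was injected with GSK, a drug the labels give no fuller name. The compound, its dose, a vehicle group and the number of animals behind each library are not given in the sources used here.

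The counts summed to between 15132754 and 17221510 per library. With 1 library per group there is no replicate check and no test, so ratios between libraries are given with a 95% exact Clopper-Pearson interval of the 2 counts, which covers counting error only. A gene was called higher or lower at 2-fold or more. All 5 rod markers were abundant in every library, with a summed level of 22859 CPM in CTL, 20724 in HIOP and 13922 in HIOP_GSK. All 11 Müller glia markers outside the 7 genes were detected in every library, at a summed level of 3409, 2852 and 3823 CPM. That sum is weighted to abundant markers such as Dkk3, Vim and Clu. The median log2 ratio of the 11 in HIOP_GSK over CTL was -0.72. Of the 11, 3 were past 2-fold on the lower side (6.32% of all genes) and 2 on the higher (10.4%). The log2 ratios of 6 lay below 0, as did those of 7761 of the 15543 kept genes. In bulk retina, fewer cells of a type and less RNA per cell cannot be told apart.

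In HIOP, 4 of the 7 genes were lower than in CTL by 2-fold or more, and none was higher by that much. The 4 were Kcnj10, Rlbp1, Aqp4 and Slc1a3. Over all kept genes the share at least 2-fold lower was 8.04%, and the share at least 2-fold higher was 9.00%. The median log2 ratio of the 7 was -1.43, and that of all 15543 genes was 0.004. Glul, Dmd and Dag1 were within 2-fold, although all 7 log2 ratios lay below 0, as did those of 7716 of the 15543 kept genes.

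**Figure D1:**
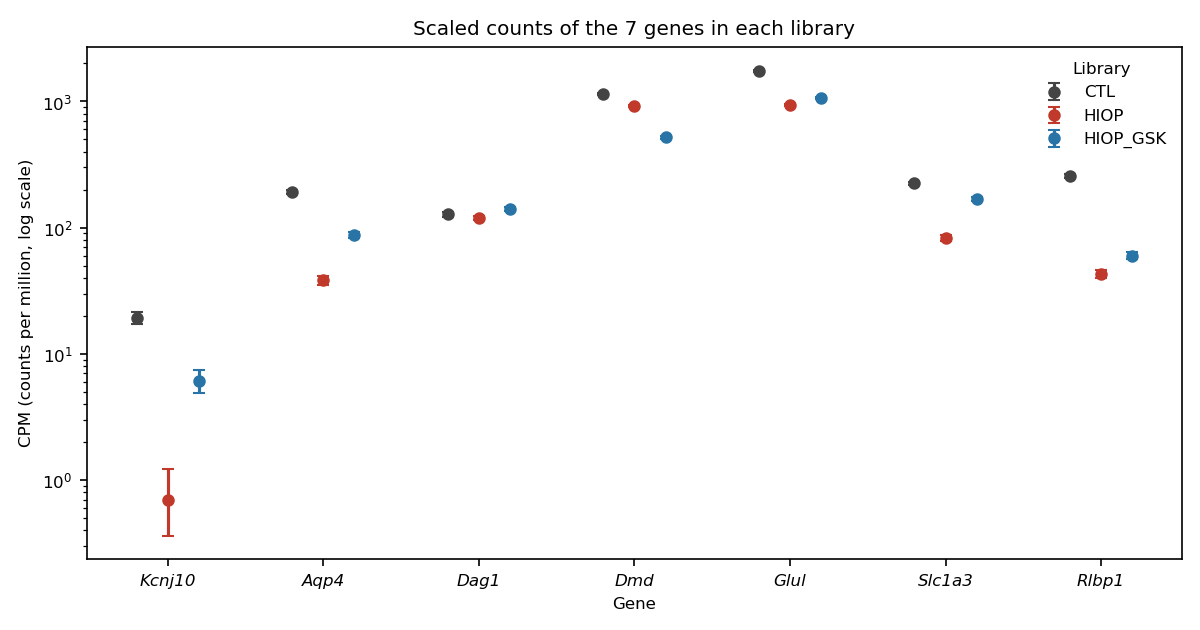
Scaled counts (CPM, log scale) of each of the 7 genes in CTL, HIOP and HIOP_GSK; each point is 1 library and bars are 95% counting intervals. Kcnj10 spans the widest range, from 19.4 CPM in CTL to 0.701 in HIOP, while Dag1 stays between 119 and 141 CPM.

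The promoters of the 4 lower genes are shown because these are the members past 2-fold in HIOP over CTL. Each is the RefSeq window from 250 bases before to 50 bases after an annotated start, in the build GRCr8, which is not the build named for the count tables. Promoter entries were matched by symbol for 6 of the 7 genes, and for Slc1a3 and Aqp4 the first entry listed is printed. Capitals mark the letters of any motif searched, and none of the matches in these 4 windows overlapped another.
Kcnj10 (chr13:87334260-87334559, + strand): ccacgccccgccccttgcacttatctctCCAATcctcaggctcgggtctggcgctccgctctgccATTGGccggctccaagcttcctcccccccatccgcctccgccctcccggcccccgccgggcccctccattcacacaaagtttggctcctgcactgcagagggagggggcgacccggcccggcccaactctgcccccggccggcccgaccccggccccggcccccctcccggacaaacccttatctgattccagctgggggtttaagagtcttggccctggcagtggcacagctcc
Aqp4 (chr18:6798793-6799092, - strand): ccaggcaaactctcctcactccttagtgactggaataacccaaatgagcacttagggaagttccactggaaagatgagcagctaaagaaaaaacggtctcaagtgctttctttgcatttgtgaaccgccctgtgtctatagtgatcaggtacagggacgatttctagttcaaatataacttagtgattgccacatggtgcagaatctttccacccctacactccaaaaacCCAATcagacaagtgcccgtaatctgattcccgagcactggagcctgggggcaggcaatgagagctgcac
Slc1a3 (chr2:59557759-59558058, - strand): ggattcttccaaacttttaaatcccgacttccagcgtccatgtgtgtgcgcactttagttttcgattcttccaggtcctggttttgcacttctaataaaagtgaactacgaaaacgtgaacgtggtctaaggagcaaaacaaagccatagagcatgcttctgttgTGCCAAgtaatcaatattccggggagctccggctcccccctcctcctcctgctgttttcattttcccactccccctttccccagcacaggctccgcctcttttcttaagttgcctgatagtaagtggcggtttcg
Rlbp1 (chr1:142731572-142731871, - strand): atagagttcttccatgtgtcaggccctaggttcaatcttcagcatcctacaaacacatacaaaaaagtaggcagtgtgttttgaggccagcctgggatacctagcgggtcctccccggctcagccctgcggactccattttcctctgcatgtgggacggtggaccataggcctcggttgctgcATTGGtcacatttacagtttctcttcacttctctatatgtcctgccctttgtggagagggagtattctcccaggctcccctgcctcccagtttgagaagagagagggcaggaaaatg

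The motifs searched, on both strands, were TAATCC (CRX and OTX factors), TTCNNNGAA (STAT), TGANTCA (AP-1), TTGGCA (NFI), ACAATG (SOX), CACNAG (HES), TATAAA and CCAAT. The letters CCAAT were found in the Kcnj10 window at -222 and, on the other strand, at -185, counted from the base before the start as -1. They were also found in the Aqp4 window at -20 and in the Rlbp1 window, on the other strand, at -67. The other Aqp4 entry, which is not printed, held none of the motifs searched. Of 33469 RefSeq windows of this length, 37.5% hold CCAAT. The Slc1a3 window held only TTGGCA, on the other strand at -85, and 14.0% of all windows hold it. The other 6 motifs were not in these 4 windows, and no motif was shared by all 4. The Kcnj10 window was the richest of the 4 in G and C, at 70.3%, against 52.0% for Rlbp1, 48.3% for Slc1a3 and 47.3% for Aqp4.

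Kcnj10, the channel through which the Müller glia take up potassium, had 312 counts in CTL, 12 in HIOP and 93 in HIOP_GSK. These were 19.4, 0.701 and 6.11 CPM. The 3 libraries lay far apart, with the lowest in HIOP and the intermediate level in HIOP_GSK. The gene was 27.7-fold lower in HIOP than in CTL (15.6 to 54.1). Its log2 ratio with a prior count of 2 was -4.56, and only 5 of the 15543 genes had a lower one. Its level in HIOP_GSK was 8.72 times that in HIOP (4.76 to 17.5). With the prior count that log2 ratio was 2.92, exceeded by 29 genes. In HIOP_GSK the gene was 3.17-fold lower than in CTL (2.51 to 4.04). The 12 counts in HIOP make the intervals of both ratios that use it wide.

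Aqp4, the water channel of the endfeet, had 3077, 655 and 1330 counts in CTL, HIOP and HIOP_GSK, or 191, 38.3 and 87.4 CPM. The order of the libraries was the same as for Kcnj10, over a smaller range. Aqp4 was 4.996-fold lower in HIOP than in CTL (4.59 to 5.44), and 125 of 15543 genes had a lower ratio. In HIOP_GSK it was 2.28-fold higher than in HIOP (2.08 to 2.51) and 2.19-fold lower than in CTL (2.05 to 2.33).

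The genes of the 2 anchors differed less between HIOP and CTL than those of the channels. Dag1, whose product spans the membrane, had 2059, 2043 and 2145 counts, or 128, 119 and 141 CPM. It was 1.07-fold lower in HIOP than in CTL (1.01 to 1.14) and 1.10-fold higher in HIOP_GSK than in CTL (1.04 to 1.17), which were the smallest differences of the 7 genes. Against HIOP its ratio in HIOP_GSK was 1.18 (1.11 to 1.26). Dmd had 18542, 15670 and 7889 counts, or 1152, 915 and 518 CPM. It was 1.26-fold lower in HIOP than in CTL (1.23 to 1.29).

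Dmd was the only one of the 7 genes that was lower in HIOP_GSK than in HIOP, by 1.77-fold (1.72 to 1.81), and 396 of 15543 genes had a lower ratio. Against CTL it was 2.22-fold lower in HIOP_GSK (2.16 to 2.28). The gene has several promoters: its short product Dp71 is the main one in the Müller glia, and Dp260 is made in photoreceptors, but a count per gene does not separate them. Rod markers were also lower in HIOP_GSK, with a summed level of 20724 CPM in HIOP and 13922 in HIOP_GSK, and the log2 ratios of Gnat1 and Nrl were -1.09 and -0.53. Those of the rod markers Sag and Pde6b were 0.20 and 0.15. Skeletal muscle, which also makes dystrophin, was at low counts: its 5 matched markers, of 7 listed, summed to 7.21, 3.62 and 5.26 CPM. The part of either in the Dmd counts was not tested.

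Within a library, the ratio of Dmd to Dag1 does not depend on library scaling. Dmd had 9005 counts per 1000 Dag1 counts in CTL (8604 to 9429), 7670 in HIOP (7324 to 8036) and 3678 in HIOP_GSK (3506 to 3859). The intervals of the 3 libraries did not overlap. Counts of 2 genes also depend on their lengths, so these values are compared only between libraries.

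Glul and Slc1a3 act in turn on glutamate, and Slc1a3 spanned the wider range of the 2. Glul, the enzyme that makes glutamine, had 28101, 16119 and 16120 counts, or 1746, 942 and 1059 CPM. The injured libraries were near each other and both were below CTL. Glul was 1.85-fold lower in HIOP than in CTL (1.82 to 1.89) and its ratio in HIOP_GSK over HIOP was 1.13 (1.10 to 1.15). With the deposited TPM its log2 ratio in HIOP over CTL was -1.003, just past the 2-fold limit, which made 5 of the 7 genes lower on that scale.

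Slc1a3, the main glutamate transporter of the Müller glia, had 3613, 1427 and 2557 counts, or 224, 83.4 and 168 CPM. HIOP was lowest and HIOP_GSK nearer to CTL. It was 2.69-fold lower in HIOP than in CTL (2.53 to 2.86). In HIOP_GSK it was 2.02-fold higher than in HIOP, with an interval from 1.89 to 2.15 that includes the 2-fold limit, and 1.34-fold lower than in CTL (1.27 to 1.41).

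Rlbp1, which carries 11-cis-retinoids in the Müller glia and the pigment epithelium, had 4143, 738 and 915 counts, or 257, 43.1 and 60.1 CPM. Both injured libraries were low. It was 5.97-fold lower in HIOP than in CTL (5.52 to 6.47), with 90 of 15543 genes at a lower ratio. Its ratio in HIOP_GSK over HIOP was 1.39 (1.26 to 1.54), and it was 4.28-fold lower in HIOP_GSK than in CTL (3.98 to 4.60). The 8 markers of the pigment epithelium, a second source of Rlbp1 RNA, summed to 601 CPM in CTL, 300 in HIOP and 398 in HIOP_GSK. Of the 7 that were kept, 6 were past 2-fold on the lower side in HIOP over CTL (8.04% of all genes). The part of that tissue in the Rlbp1 difference was not tested.

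In HIOP_GSK over HIOP, Kcnj10, Aqp4 and Slc1a3 were past 2-fold on the higher side, which is 3 of the 7 genes, and none was past it on the lower side. Of all genes, 4.56% were past 2-fold on the higher side and 1.69% on the lower. The median log2 ratio of the 7 genes was 0.48, and that of all genes was -0.002. In HIOP_GSK over CTL, Kcnj10, Rlbp1, Dmd and Aqp4 were past 2-fold on the lower side, which is 4 of the 7, and none on the higher side. Of all genes, 6.32% were past it on the lower side and 10.4% on the higher. The median of the 7 was -1.13, beside 0.001 for all genes. These comparisons share libraries with each other and with HIOP over CTL, so their values stand side by side and are not independent.

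**Figure D2:**
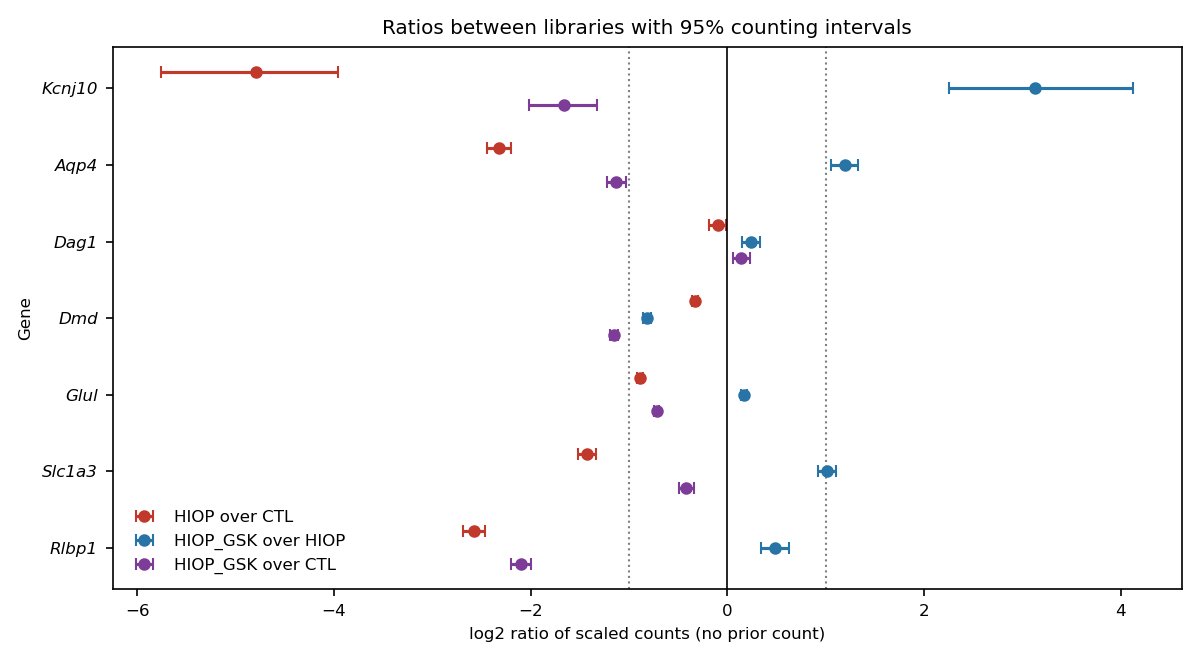
Log2 ratio of scaled counts for each of the 7 genes in 3 comparisons of libraries; bars are 95% counting intervals and dotted lines mark 2-fold. Kcnj10, Aqp4 and Slc1a3 lie below 0 in HIOP over CTL and at or past the upper dotted line in HIOP_GSK over HIOP, whereas Dmd lies below 0 in all 3 comparisons.

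Set against Glul in the same library, the other Müller genes still differed between libraries. Kcnj10 had 11.1 counts per 1000 Glul counts in CTL (9.90 to 12.4), 0.744 in HIOP (0.385 to 1.3) and 5.77 in HIOP_GSK (4.65 to 7.07). Aqp4 had 109 (105 to 114), 40.6 (37.5 to 43.9) and 82.5 (78.0 to 87.3). Rlbp1 had 147 (143 to 152), 45.8 (42.5 to 49.3) and 56.8 (53.0 to 60.7). For these 3 genes the order of the libraries was the one seen in CPM, with intervals that did not overlap.

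Slc1a3 differed from those 3 genes on this measure. It had 129 counts per 1000 Glul counts in CTL (124 to 133), 88.5 in HIOP (83.8 to 93.5) and 159 in HIOP_GSK (152 to 165). Relative to Glul, HIOP_GSK was thus above CTL, which was not so for Slc1a3 in CPM.

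**Figure D3:**
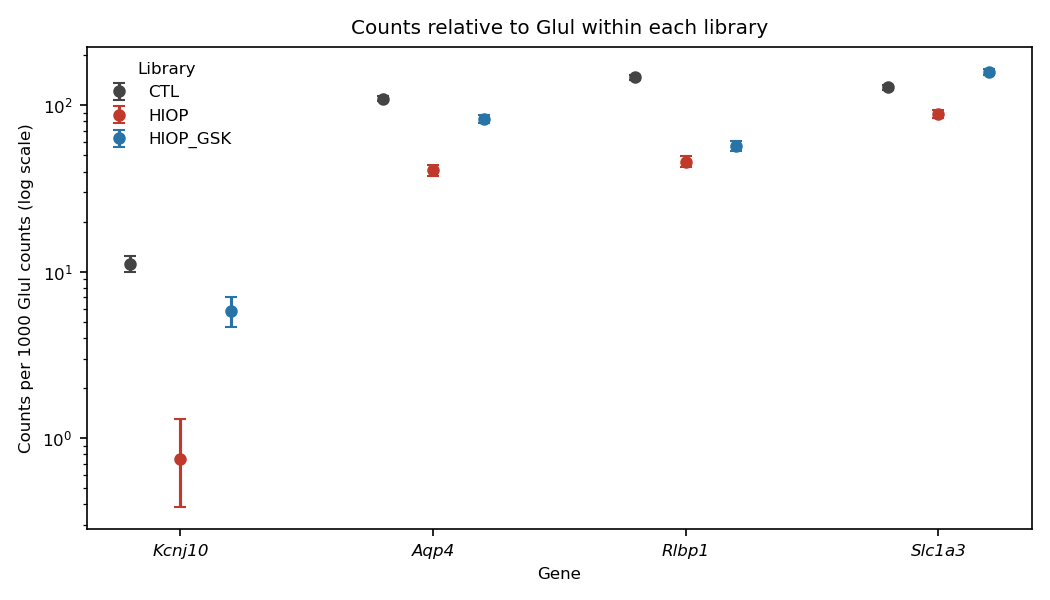
Counts of Kcnj10, Aqp4, Rlbp1 and Slc1a3 per 1000 Glul counts (log scale) in each library, with 95% counting intervals. HIOP is lowest for all 4 genes, and HIOP_GSK is above CTL for Slc1a3 only (159 against 129).

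Levels were compared between genes only per transcript length, as deposited TPM (transcript abundance scaled to a fixed total). In CTL the order was Glul at 1012 TPM, Rlbp1 at 148, Dmd at 108, Slc1a3 at 88.0, Aqp4 at 61.0, Dag1 at 37.3 and Kcnj10 at 14.6. In HIOP it was Glul at 505, Dmd at 74.5, Dag1 at 31.3, Slc1a3 at 29.6, Rlbp1 at 22.6, Aqp4 at 11.1 and Kcnj10 at 0.65. Glul was first and Kcnj10 last in each library, while Rlbp1 was the second in CTL and the fifth in HIOP. In HIOP_GSK it was Glul at 585, Slc1a3 at 61.9, Dmd at 43.9, Dag1 at 38.4, Rlbp1 at 31.7, Aqp4 at 25.55 and Kcnj10 at 4.39. No spread over samples exists for these levels, so neighbours as near as Dag1 and Slc1a3 in HIOP cannot be put in order.

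Other markers of the Müller glia lay on both sides of their CTL levels. Of 11 markers, 4 were past 2-fold on the lower side in HIOP over CTL (8.04% of all genes) and 2 on the higher side (9.00%). The median log2 ratio of the 11 was -0.49, with a range from -3.08 to 1.24. Gpr37, an orphan receptor, was 8.54-fold lower (7.49 to 9.76), and Abca8a, a lipid transporter, 5.25-fold lower (4.89 to 5.64). Vim, the intermediate filament of these cells, was 2.37-fold higher (2.28 to 2.46), and Clu, which encodes clusterin, 2.05-fold higher (1.99 to 2.10; log2 ratio 0.89 with the deposited TPM). The other 2 on the lower side were Dkk3 and Car2, at 2.18-fold (2.13 to 2.23) and 3.43-fold (3.25 to 3.61). Sox9, a transcription factor of Müller nuclei, had 846 and 946 counts and a ratio of 1.05 (0.957 to 1.15). In HIOP_GSK over HIOP, 3 of the 11 were past 2-fold on the higher side (4.56% of all genes) and none on the lower side (1.69%). Those 3 were Crym, Dbi and Gpr37, with log2 ratios of 1.37, 1.22 and 1.11.

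Of 5 astrocyte markers, 3 were kept. S100b was the 1 past 2-fold in HIOP over CTL, on the lower side (8.04% of all genes), with a log2 ratio of -1.33. Gfap, the filament that Müller glia also make after injury, had 580, 642 and 2470 counts and a ratio of 4.33 in HIOP_GSK over HIOP (3.97 to 4.73). The other kept astrocyte markers, S100b and Gja1, had log2 ratios of 0.11 and -0.39 in that comparison. The summed level of the astrocyte list was 444 CPM in CTL, 351 in HIOP and 407 in HIOP_GSK, and Gfap itself was at 37.5 CPM in HIOP and 162 in HIOP_GSK, so the higher sum in HIOP_GSK than in HIOP came from Gfap. Astrocytes also express Aqp4, Kcnj10 and Slc1a3, and their part in these counts was not tested.

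In the dystrophin complex beyond Dmd and Dag1, all 14 kept genes had log2 ratios below 0 in HIOP over CTL, most of them within 2-fold. Over all genes, 7716 of 15543 log2 ratios lay below 0 in that comparison. The lists of partner genes that follow were chosen with earlier results of these data known, and their counts stand beside the shares over all genes. Of 17 listed genes, 16 were matched and 14 kept. Of those 14, 4 were past 2-fold on the lower side, where 8.04% of all genes were, and none on the higher, where 9.00% were. Their median log2 ratio was -0.67. Sntb1, a syntrophin, had 395, 89 and 129 counts and was 4.72-fold lower in HIOP (3.74 to 6.01). Sgcd, a sarcoglycan, had 59, 17 and 30 counts and was 3.69-fold lower (2.12 to 6.75), but its log2 ratio with the deposited TPM was -0.87. Nos1, the neuronal nitric oxide synthase, was 2.62-fold lower (2.02 to 3.42), and Drp2, a dystrophin relative, 2.06-fold lower (1.75 to 2.44, log2 ratio -0.95 with the deposited TPM). Dtna was within 2-fold, with a log2 ratio of -0.96, but past it with the deposited TPM, at -1.03.

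Utrn, the relative of dystrophin, lay nearer to its CTL level than Kcnj10 and Aqp4. It had 3777, 2870 and 3153 counts and was 1.40-fold lower in HIOP than in CTL (1.33 to 1.47). In HIOP_GSK over HIOP none of the 14 genes was past 2-fold in either direction, where 4.56% of all genes were higher and 1.69% lower. Near the limit were Sgcd, 1.99-fold higher (1.06 to 3.84), and Sntg2, 1.98-fold lower (1.67 to 2.35).

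The genes that act on the outer side of dystroglycan were mostly near their CTL levels. Of 11 ligand and matrix genes, 1 was past 2-fold on the higher side in HIOP over CTL (9.00% of all genes) and none on the lower side (8.04%), with a median log2 ratio of -0.02. Lamc1, the laminin gamma-1 chain, had 1135, 3125 and 2398 counts and was 2.59-fold higher (2.42 to 2.77). Egflam, which encodes pikachurin, the dystroglycan ligand of the photoreceptor synapse, had a ratio of 1.24 (1.19 to 1.29). Of 18 genes that build the sugar chains of dystroglycan, 17 were kept and none was past 2-fold in HIOP over CTL, with a range of log2 ratios from -0.93 to 0.51. B4gat1 had 0 counts in all 3 libraries.

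Other genes of potassium handling included further steep differences. Of 20 channels and pumps, 19 were kept, and 4 of them were past 2-fold on the lower side in HIOP over CTL (8.04% of all genes) and none on the higher (9.00%), with a median log2 ratio of -0.35. Kcnk2, the stretch-sensitive channel TREK-1, had 137, 25 and 55 counts and was 5.83-fold lower (3.79 to 9.32). Kcnj13, the Kir7.1 channel of the pigment epithelium, was 3.62-fold lower (2.78 to 4.76), and Kcnj8, the Kir6.1 channel of pericytes, 3.32-fold lower (1.89 to 6.11).

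Of the 19 genes of this potassium list, 2 were past 2-fold in HIOP_GSK over HIOP, both on the higher side (4.56% of all genes): Kcnj8 at 4.24-fold (2.45 to 7.71) and Kcnk2 at 2.48-fold (1.52 to 4.15). Kcnj16, which encodes Kir5.1, the usual partner of Kir4.1, had 3 counts in each library and did not pass the filter. Kcnj2, the Kir2.1 channel, had 64, 61 and 65 counts.

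In the list of water channels and volume regulation, 16 of 21 genes were kept, 5 were past 2-fold on the lower side in HIOP over CTL (8.04% of all genes) and 2 on the higher (9.00%), with a median log2 ratio of -0.16. Car14 and Car2, carbonic anhydrases of the Müller glia, were 4.86-fold (4.35 to 5.45) and 3.43-fold lower (3.25 to 3.61), and both stayed low in HIOP_GSK, with 286 and 1879 counts. P2ry1, a purine receptor, and Aqp3, an aquaporin of epithelia, had log2 ratios of -1.07 and -1.01. Aqp5, an aquaporin of surface epithelia and glands, had 166, 14 and 44 counts and was 12.6-fold lower in HIOP (7.31 to 23.6). The 4 surface epithelium markers summed to 12.5 CPM in HIOP against 261 in CTL, and the part of that tissue in the Aqp5 counts was not tested. Trpv4, a cation channel that responds to swelling, had 19, 55 and 63 counts and was 2.72-fold higher (1.59 to 4.86), but with the deposited TPM its log2 ratio was 0.67. Mip, the lens aquaporin, had 202, 639 and 4436 counts and was 2.97-fold higher in HIOP than in CTL (2.54 to 3.50).

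Mip, Aqp5 and Aqp9 were the 3 genes of the water list past 2-fold in HIOP_GSK over HIOP, all on the higher side (4.56% of all genes). Mip was 7.81-fold (7.19 to 8.50) and Aqp5 3.54-fold higher (1.90 to 6.99). Aqp9 was kept through HIOP_GSK alone, with 3, 7 and 18 counts, and its log2 ratio in HIOP_GSK over HIOP was 1.29 from counts but 0.20 with the deposited TPM, which leaves 2 genes of the list past 2-fold on that scale. The 5 lens markers, Mip among them, summed to 722 CPM in CTL, 1890 in HIOP and 5849 in HIOP_GSK. The part of lens tissue in these differences was not tested.

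Of 22 genes of glutamate handling other than Glul and Slc1a3, 20 were kept. In HIOP over CTL 1 of the 20 was past 2-fold on the lower side and 2 on the higher, near the shares over all genes (8.04% and 9.00%), with a median log2 ratio of -0.12. Slc1a5, the glutamine and neutral amino acid exchanger ASCT2, had 75, 1240 and 848 counts and was 15.5-fold higher (12.3 to 19.9). Slc7a11, the cystine and glutamate exchanger, had 2599, 6084 and 2917 counts and was 2.20-fold higher (2.10 to 2.31), but its log2 ratio with the deposited TPM was 0.97. Pc, pyruvate carboxylase, was 2.47-fold lower (2.15 to 2.84). Gls2 was within 2-fold, with a log2 ratio of -0.81, but past it with the deposited TPM, at -1.29. Slc1a2, the transporter GLT-1 found in cones and bipolar cells, was 1.31-fold lower (1.22 to 1.40), and Slc38a3, the glutamine exporter of the Müller glia, 1.63-fold lower (1.57 to 1.70).

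Of 25 genes of retinoid handling, 24 were kept. In HIOP over CTL 8 of the 24 were past 2-fold on the lower side (8.04% of all genes) and 2 on the higher (9.00%), with a median log2 ratio of -0.29. Rpe65, the isomerase of the pigment epithelium, was 4.28-fold lower (3.72 to 4.92). Stra6, the receptor that takes up retinol, was 3.19-fold lower (2.54 to 4.04). Rdh5 and Rgr, of the pigment epithelium and, for Rgr, also the Müller glia, were 2.51-fold (1.99 to 3.20) and 2.36-fold lower (2.15 to 2.59). The others past 2-fold were Lrat, Aldh1a2, Dhrs3 and Rdh11, with log2 ratios of -1.24, -1.21, -1.14 and -1.03, of which Aldh1a2 had 20, 8 and 13 counts and a log2 ratio of -0.83 with the deposited TPM. Rdh10, a retinol dehydrogenase, had 834, 2827 and 1326 counts and was 3.19-fold higher (2.95 to 3.45). Dhrs9 had 5, 47 and 27 counts and was 8.84-fold higher (3.53 to 28.5), and it was kept only through the injured libraries. In HIOP_GSK over HIOP none of the 24 genes was past 2-fold, where 4.56% of all genes were higher and 1.69% lower. Rpe65 was near the limit, at 1.94-fold higher (1.66 to 2.27), and past it with the deposited TPM, at a log2 ratio of 1.05. Rpe65, Lrat, Rgr and Rdh5 are also pigment epithelium markers, whose summed level is given with Rlbp1, and the part of that tissue in this list was not tested.

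**Figure D4:**
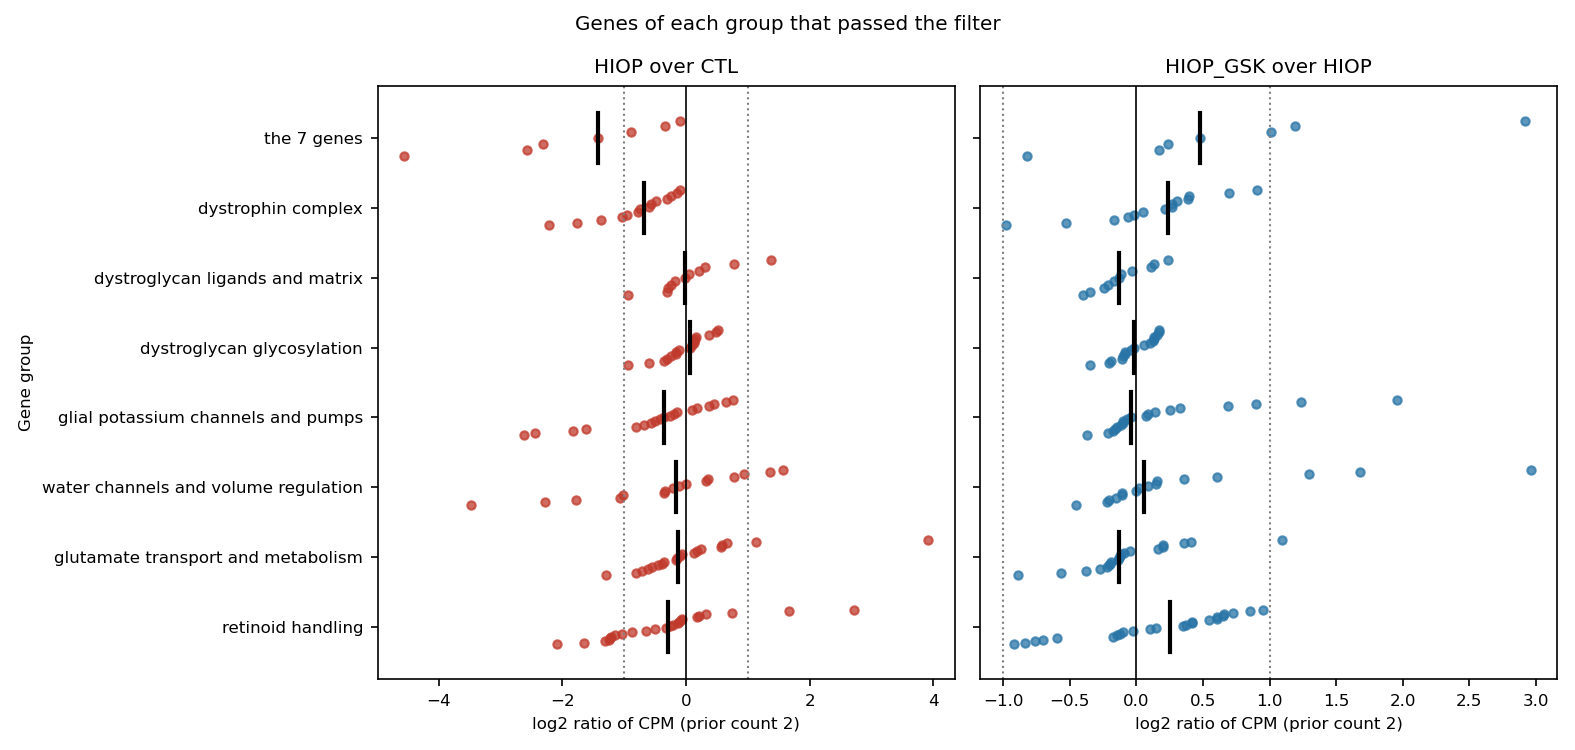
Log2 ratio of CPM (prior count 2) for the 7 genes and the genes of each partner list that were kept; each point is 1 gene, black bars are medians and dotted lines mark 2-fold. The 7 genes have a median of -1.43 in HIOP over CTL, below that of every list shown, and 0.48 in HIOP_GSK over HIOP.

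Genes with the pattern most like each of the 4 lower members were found as the nearest in the 2 log2 ratios HIOP over CTL and HIOP_GSK over CTL, among 10679 named genes with at least 100 counts in CTL. The measure rests on 3 libraries that all genes share. For Kcnj10 the nearest was Krt5, a keratin of surface epithelium, at a distance of 0.27, followed by Rftn2 at 0.35 and Lypd2 at 0.999. No gene lay within 0.25 of Kcnj10. In HIOP, Kcnj10 had 12 counts, Krt5 33, Rftn2 5 and Lypd2 7. Counting error at such counts is not small beside these distances, so they do not settle which gene is nearest. The 4 surface epithelium markers, Krt5 among them, summed to 261 CPM in CTL, 12.5 in HIOP and 55.2 in HIOP_GSK. The sum had the same order as Kcnj10, but not every marker did. In HIOP_GSK over CTL, 3 of the 4 were past 2-fold on the lower side (6.32% of all genes). The remaining 1 was past it on the higher side (10.4%), at a log2 ratio of 1.23. The part of that tissue in the Kcnj10 counts was not tested.

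For Aqp4, 7 genes lay within 0.25, the nearest being Fat2 at 0.08, Igfn1 at 0.13 and Kcnk2 at 0.15. For Slc1a3, 15 genes lay within that distance, led by Selenop at 0.11, Chrna3 at 0.13 and Spag5 at 0.14. For Rlbp1 there were 8, led by Akr1c19 at 0.08, Slco1c1 at 0.09 and Col2a1 at 0.11. The 4 members had different nearest genes.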

How the data were processed

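RNA of 3 retinal libraries was analysed, 1 per group. Per the labels' protocols, ribosomal RNA was removed from 3 µg of RNA and directional libraries were made. The authors deposited a whole-number count, not normalized, and a TPM value per gene; the submitters' processing notes name RSEM 1.3.1, STAR 2.5.4b and the build Rnor_6.0, without their roles. Counts and TPM did not match for every gene. Genes with 0 counts but a TPM above 1 numbered 19 in CTL, 17 in HIOP and 17 in HIOP_GSK. How strand was set in counting is not given in the sources used here. Reads of overlapping genes may therefore be shared. Counts were scaled with TMM factors of edgeR 4.0.16 (0.994 to 1.01), and log2 ratios used a prior count of 2. Genes with a lower or higher ratio than a member were counted on these log2 ratios. Ratios with intervals used no prior count. Deposited TPM entered log2 ratios with a pseudocount of 0.5. Functions were tested on simulated data. The members, the 7 lists and the 9 marker lists were chosen with earlier results of these data known. Named list genes are the direct partners and, per list, up to 3 genes in each direction past 2-fold in HIOP over CTL and up to 2 in HIOP_GSK over HIOP, ranked by the interval bound nearer to no difference; other genes named from the lists and markers were chosen after their values were seen. Some genes that these rules name are not reported here. Symbols were matched directly or by a synonym in the RefSeq table of GRCr8. Alternatives covered scaling (also DESeq2 1.42.0), measure, filter, prior count, limit and repeated symbols.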

Additional observations from a re-analysis of the deposited data

How the results depend on the processing

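No paired analysis was possible because each group had 1 library, and no library could be left out. Scaling by total counts, by DESeq2 size factors or without mitochondrial and the 20 most abundant genes, both other filters, both other prior counts and summing repeated symbols changed no count of the 7 genes past 2-fold. With the deposited TPM the median log2 ratio of the 7 genes was -1.55 (HIOP over CTL) and -1.24 (HIOP_GSK over CTL), and Kcnj10 per 1000 of Glul was 14.4 in CTL and 7.51 in HIOP_GSK, on a scale that divides by length. At a limit of 1.5-fold, 1 of the 7 was lower in HIOP_GSK than in HIOP, namely Dmd. At 3-fold, 1 was higher in HIOP_GSK than in HIOP (Kcnj10) and 2 were lower in HIOP_GSK than in CTL. The log2 ratio of Kcnj10 in HIOP over CTL ranged from -4.73 to -3.71 over 10 settings, where the pseudocount on a TPM of 0.65 gave the smallest difference. No ratio past 2-fold reversed under these alternatives. Over all genes in HIOP_GSK over HIOP, 263 lower and 709 higher became 711 and 1448 with no filter, 114 and 336 at a CPM of at least 5, and 153 and 481 at a prior count of 10. Depth limits Kcnj10 in HIOP, with 12 counts.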
